A study of Homo sapiens with 26 samples.

Results

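Described here are 9 genes, MAP2, ACTG2, CDH9, HAPLN1, L1CAM, HAP1, KIF1A, ARHGEF6 and SHC3, out of 18417 genes with a level on the arrays. They are neural and cytoskeletal genes chosen by their log2 levels on these arrays, from the average shift with siRNA against the DNA methyltransferase DNMT3B in the presence and absence of siRNA against DNMT3A and DNMT3L. Each had exactly 1 row of the table with a single gene symbol, so all 9 were measured and none was dropped. The shift that chose them is given as a description, without a test.

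The cells were NCCIT, an established human embryonic carcinoma line, transfected by means of the PepMute reagent with siRNA from Dharmacon, and 26 Affymetrix Human Gene 1.0 ST arrays were hybridised. The 13 groups had 2 arrays each. Control siRNA was given in siNTC-1 and siNTC-2. A single siRNA was given in siDNMT1, siDNMT3A, siDNMT3B and siDNMT3L. DNMT1 siRNA was combined with others in siD1+3A+3B, siD1+3B and siD1+3A. Combinations without it were 3A+3B+3L, 3B+3L, 3A+3L and 3A+3B. All arrays were of 1 cell line, and no label tells whether the arrays of a pair had their own cultures. The spread behind each p-value is therefore that of duplicates alone and may be technical.

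Cells methylate cytosine in CpG pairs of their DNA. DNMT1 copies the pattern at replication, DNMT3A and DNMT3B set it at unmethylated sites, and DNMT3L is a cofactor of the DNMT3 enzymes that has no catalytic activity. Methylation of a promoter is known to accompany silencing of many germ line and lineage genes. The 9 genes belong mostly to neurons and muscle. MAP2 stabilises microtubules in dendrites, KIF1A is a kinesin that carries synaptic vesicle precursors along axons, and HAP1 binds huntingtin and takes part in vesicle transport. CDH9 is a type II cadherin, L1CAM an adhesion molecule of growing axons and HAPLN1 a link protein that holds hyaluronan and proteoglycans together. ACTG2 is the gamma actin of visceral smooth muscle, ARHGEF6 activates the small GTPases Rac and Cdc42, and SHC3 is a neuronal adaptor of receptor tyrosine kinases.

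Promoter windows of 300 bases (250 before and 50 after the annotated start) were taken from RefSeq, build GRCh38.p14. All 9 genes matched, with 16 windows between them. Of the 14239 promoters of tested genes with a window, the lower quartile held 9 CpG pairs, the median 23 and the upper quartile 32. By that measure 7 of the 9 genes had every window below the median, and 2, HAP1 and KIF1A, had at least 1 window at or above it. The windows below show this contrast: 4 CpG-poor ones and the CpG-rich one of HAP1, read 5′ to 3′, with each CpG in capitals. The ACTG2 window is chr2:73892758-73893057 on the plus strand. The others lie on the minus strand, at chr5:27038537-27038836 for CDH9, chr5:83720806-83721105 for HAPLN1, chr9:89178769-89179068 for SHC3 and chr17:41734594-41734893 for HAP1.
ACTG2: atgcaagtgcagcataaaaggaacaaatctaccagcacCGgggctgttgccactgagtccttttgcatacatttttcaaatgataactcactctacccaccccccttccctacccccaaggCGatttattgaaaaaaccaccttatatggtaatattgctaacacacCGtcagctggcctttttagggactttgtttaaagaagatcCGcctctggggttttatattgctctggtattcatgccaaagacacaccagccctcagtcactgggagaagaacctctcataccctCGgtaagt
CDH9: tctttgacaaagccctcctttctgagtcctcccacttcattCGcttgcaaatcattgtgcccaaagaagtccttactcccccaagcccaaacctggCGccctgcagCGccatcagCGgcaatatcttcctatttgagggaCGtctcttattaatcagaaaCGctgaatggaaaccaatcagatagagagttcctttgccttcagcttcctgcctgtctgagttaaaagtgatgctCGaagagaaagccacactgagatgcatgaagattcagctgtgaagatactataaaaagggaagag
HAPLN1: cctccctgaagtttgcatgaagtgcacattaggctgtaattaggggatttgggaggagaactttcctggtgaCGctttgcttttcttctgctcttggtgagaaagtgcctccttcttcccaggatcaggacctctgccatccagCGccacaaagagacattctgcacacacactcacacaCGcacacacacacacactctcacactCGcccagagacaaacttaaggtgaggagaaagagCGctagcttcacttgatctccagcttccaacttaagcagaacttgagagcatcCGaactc
SHC3: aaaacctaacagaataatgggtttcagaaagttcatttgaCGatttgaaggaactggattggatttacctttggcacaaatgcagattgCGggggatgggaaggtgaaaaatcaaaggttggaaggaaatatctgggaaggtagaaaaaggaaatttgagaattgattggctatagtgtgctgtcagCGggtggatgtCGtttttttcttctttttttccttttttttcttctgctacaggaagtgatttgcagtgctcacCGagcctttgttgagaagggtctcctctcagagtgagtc
HAP1: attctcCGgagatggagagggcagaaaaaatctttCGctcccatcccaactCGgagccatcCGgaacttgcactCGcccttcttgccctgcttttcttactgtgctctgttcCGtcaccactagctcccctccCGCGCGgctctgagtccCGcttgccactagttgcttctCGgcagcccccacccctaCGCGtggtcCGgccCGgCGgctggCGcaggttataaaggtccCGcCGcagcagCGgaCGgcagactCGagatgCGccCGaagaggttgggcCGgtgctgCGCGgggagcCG

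The ACTG2 and SHC3 windows held 5 CpG each, CDH9 held 7, HAPLN1 held 6 and HAP1 held 28. MAP2 had 5, 7 and 10 CpG in its 3 windows, L1CAM 10 and 8, ARHGEF6 8 and 19, and KIF1A 10, 20 and 51. The letters TATAAA, searched on both strands, occurred in windows of 3 genes (ACTG2, CDH9 and HAP1) and in 9% of all promoters of that length. The CArG box, the motif bound by serum response factor, matched 2 times in ACTG2 and in no window of the other 8 genes, against 1.22% of all promoters with a match. A match is a description of the letters only, and methylation of these windows was not analysed here.

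Duplicate arrays correlated at 0.99728 to 0.99892 over the 18417 genes. Array medians over all rows lay between 6.28 and 6.33 on the log2 scale. DNMT3B siRNA was given in 6 groups and not in 7. The DNMT3B transcript averaged 10.99 in siDNMT3B, 11.22 in 3A+3B, 11.21 in 3B+3L and 11.28 in siD1+3B, against 11.67 and 11.98 in the controls, but 11.66 in 3A+3B+3L and 11.47 in siD1+3A+3B. It was therefore as high in 3A+3B+3L as in siNTC-2, but lower than in 3A+3L (11.95), the group that 3A+3B+3L is set against below. Of 12 pluripotency markers, 9 were measured and 0 lay below the median gene, while 9 of 12 measured neural lineage markers and 6 of 7 smooth muscle and mesoderm markers lay below it. The first principal component of the table's rows without a symbol split the arrays into 2 sets, with 8 arrays of siNTC-1, siDNMT1, siDNMT3B and siDNMT3L on 1 side and 18 arrays of the other 9 groups on the siNTC-2 side. No label names these sets, and 0 groups were split by them.

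The controls, which lie on opposite sides, differed in most of these 9 genes. Control group and array set cannot be told apart in that difference. Both controls entered the choice of the genes, so their values are a description. From siNTC-1 to siNTC-2, 8 of the 9 lay past an adjusted p of 0.05 (limma), as did 44.7% of all genes (24.2% higher and 20.5% lower), and nothing is read from that count. MAP2 was lower in siNTC-2 by a log2 difference of -0.75 ± 0.09 (SE), ACTG2 by -0.80 ± 0.08, CDH9 by -0.68 ± 0.12 and HAPLN1 by -1.12 ± 0.10. L1CAM was higher by 0.84 ± 0.11, HAP1 by 0.55 ± 0.11, KIF1A by 1.24 ± 0.08 and ARHGEF6 by 1.13 ± 0.10. SHC3, at -0.02 ± 0.09, was the exception. A comparison that crosses the sets is therefore also given with each group set against the control of its own side. On the siNTC-1 side that form rests on the 2 siNTC-1 arrays, which need not stand for the other groups there. HAPLN1, for example, averaged 6.45 in siNTC-1 but 5.11 in siDNMT1 and 5.20 in siDNMT3L. Genes of the stress response, listed as a separate check, differed between the controls too: 13 of 15 were higher in siNTC-2, with a median log2 difference of 1.63. Their part in the members' values was not tested.

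Levels by group differed by more than the duplicates did. The group means of MAP2 spanned 2.33 log2 units, those of ACTG2 2.04, of SHC3 2.01, of CDH9 1.95, of HAPLN1 1.73, of L1CAM 1.65, of HAP1 1.63, of ARHGEF6 1.53 and of KIF1A 1.51. The pooled SD of duplicates ran from 0.08 for KIF1A to 0.14 for CDH9. Levels of different genes are not compared with each other, since probes differ in brightness.

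**Figure D1:**
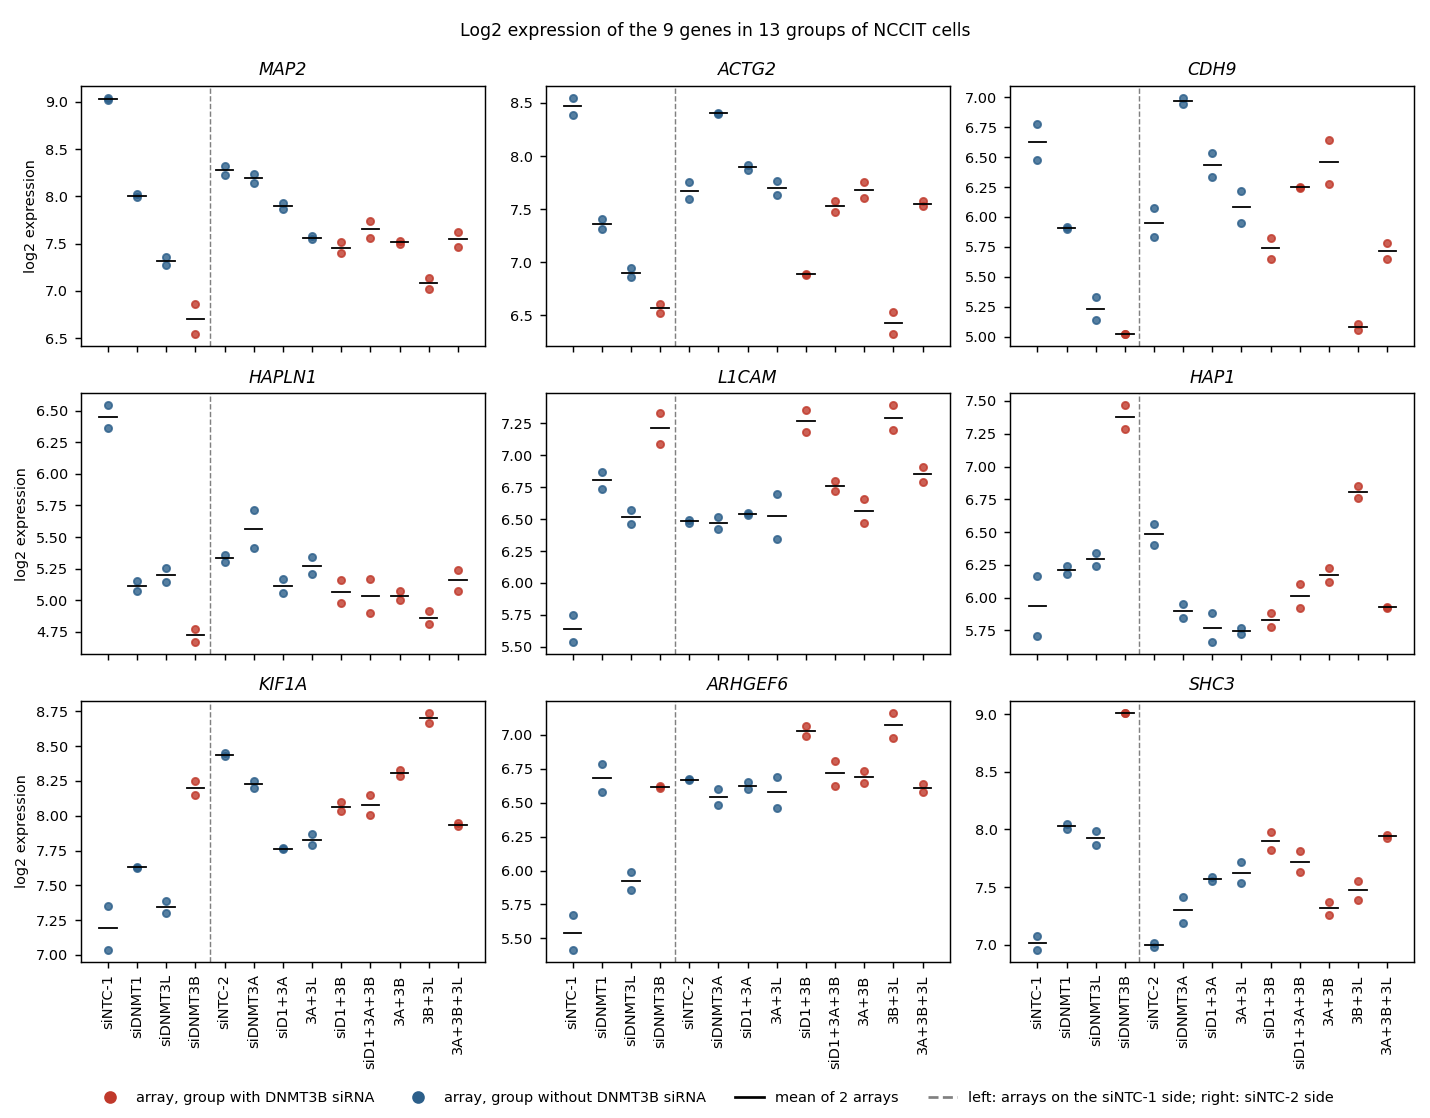
Log2 level of each of the 9 genes in every array by group, with the siNTC-1 side left of the dashed line and the siNTC-2 side right of it; red points are arrays with DNMT3B siRNA, blue ones without it, and a black line is the mean of 2 arrays. The siDNMT3B arrays of MAP2 (6.54 and 6.86) lie below all other arrays of that gene, and those of SHC3 (both 9.01) above all others.

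MAP2, the dendritic microtubule protein, had the highest level in siNTC-1 (9.02 and 9.05) and the lowest in siDNMT3B (6.54 and 6.86). Between them came siNTC-2 (8.33 and 8.23), siDNMT3A (8.14 and 8.24), siDNMT1 (7.99 and 8.02) and siD1+3A (7.87 and 7.93). The middle of the order held siD1+3A+3B (7.56 and 7.74), 3A+3L (7.58 and 7.55), 3A+3B+3L (7.63 and 7.47), 3A+3B (7.50 and 7.53) and siD1+3B (7.51 and 7.40), and these neighbours overlapped. Below them lay siDNMT3L (7.36 and 7.28) and 3B+3L (7.14 and 7.02), each separate from its neighbours. Of the 12 steps between neighbours in the order, 5 overlapped.

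KIF1A, the axonal motor, had siNTC-1 at the low end of its order, where MAP2 had it at the high end. Its lowest arrays were those of siNTC-1 (7.35 and 7.04) and siDNMT3L (7.30 and 7.39), and its highest those of 3B+3L (8.74 and 8.67) and siNTC-2 (8.45 and 8.43). In siDNMT3B it measured 8.25 and 8.15, close to siDNMT3A at 8.25 and 8.20. The siDNMT3B and siDNMT3A arrays overlap, so its level with DNMT3B siRNA alone was not outside that of a group without it. HAP1, the vesicle transport protein, was by contrast highest in siDNMT3B (7.29 and 7.47), followed by 3B+3L (6.85 and 6.76) and siNTC-2 (6.40 and 6.56). It was lowest in 3A+3L (5.72 and 5.77), siD1+3A (5.88 and 5.66) and siD1+3B (5.88 and 5.78), of which siD1+3A overlapped both others, so a group with DNMT3B siRNA stood among the lowest. Its siNTC-1 arrays, 6.16 and 5.71, had the largest gap between duplicates of any of the 9 genes, 0.46.

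Among the adhesion and matrix genes, CDH9 was highest in siDNMT3A (mean 6.97) and lowest in siDNMT3B (both 5.02), 3B+3L (5.11 and 5.05) and siDNMT3L (5.33 and 5.14). With DNMT3A and DNMT3B siRNA together (3A+3B) this cadherin measured 6.27 and 6.65, above siNTC-2 at 6.07 and 5.83. HAPLN1, the hyaluronan link protein, stood apart mainly in siNTC-1 (6.36 and 6.54), while all other arrays lay between 4.67 and 5.72. Of its 12 steps between neighbours 9 overlapped, so its order below the control is little resolved. L1CAM, the axonal adhesion molecule, was lowest in siNTC-1 (5.54 and 5.75) and highest in 3B+3L (7.39 and 7.20), siD1+3B (7.35 and 7.18) and siDNMT3B (7.09 and 7.33). These 3 groups, all with DNMT3B siRNA but without DNMT3A siRNA, overlapped each other and lay above every other array of the gene, the next being siD1+3A+3B, 3A+3B+3L and siDNMT1 with arrays up to 6.91.

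ACTG2, the smooth muscle actin, was highest in siNTC-1 (8.39 and 8.55) and siDNMT3A (8.39 and 8.41). It was lowest in 3B+3L (6.32 and 6.53), siDNMT3B (6.52 and 6.61), siD1+3B (6.88 and 6.89) and siDNMT3L (6.86 and 6.95). The 3 lowest of these have DNMT3B siRNA without DNMT3A siRNA, but siDNMT3L, which overlaps siD1+3B, has neither. ARHGEF6, the Rac and Cdc42 activator, was lowest in siNTC-1 (5.42 and 5.67) and siDNMT3L (5.86 and 5.99). Its highest arrays were those of 3B+3L (6.98 and 7.16) and siD1+3B (7.06 and 6.99), and the other 9 groups all lay between 6.46 and 6.81. SHC3, the receptor adaptor, was highest in siDNMT3B (both 9.01) and lowest in siNTC-2 (6.98 and 7.02) and siNTC-1 (6.96 and 7.08), with siDNMT1 at 8.01 and 8.05 as the second highest group.

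The average shift that chose the genes was taken over 4 backgrounds, and these differed widely in size. For MAP2 the log2 difference with minus without DNMT3B siRNA was -1.96 on the mean of the controls, -0.68 on siDNMT3A, -0.23 on siDNMT3L and -0.01 on 3A+3L, with an average of -0.72, the lowest of all 18417 genes. ACTG2 gave -1.50, -0.72, -0.48 and -0.15 in the same order and -0.71 on average. CDH9 gave -1.27, -0.51, -0.15 and -0.36, averaging -0.57, and HAPLN1 gave -1.17, -0.53, -0.34 and -0.12, averaging -0.54. In these 4 genes between 52.7% and 67.8% of the average came from siDNMT3B alone against the controls.

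The other 5 genes had positive averages. L1CAM gave 1.15 on control, 0.09 on siDNMT3A, 0.77 on siDNMT3L and 0.33 on 3A+3L, for an average of 0.59, and HAP1 gave 1.17, 0.28, 0.51 and 0.18, for 0.53. KIF1A (0.38, 0.08, 1.36 and 0.11, average 0.48) and ARHGEF6 (0.51, 0.15, 1.15 and 0.03, average 0.46) had their largest difference on siDNMT3L, which crosses the array sets. With each group set against the control of its own side, that difference was 0.12 for KIF1A and 0.02 for ARHGEF6. It became 0.52 for MAP2, 0.32 for ACTG2, 0.52 for CDH9, 0.79 for HAPLN1, -0.06 for L1CAM and -0.04 for HAP1, opposite in sign to their averages. The value on control also depended on the side. Against siNTC-1, on its own side, siDNMT3B gave 1.01 for KIF1A and 1.07 for ARHGEF6, which were then their largest differences, and against siNTC-2 it gave -0.24 and -0.06. For the other 7 genes the difference kept its sign against either control, from -2.33 and -1.58 for MAP2 to 1.99 and 2.01 for SHC3. SHC3 drew its whole average of 0.47 from 1 background: it gave 2.00 on control, 0.01 on siDNMT3A, -0.45 on siDNMT3L and 0.31 on 3A+3L, and the mean of the last 3 was -0.04.

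**Figure D2:**
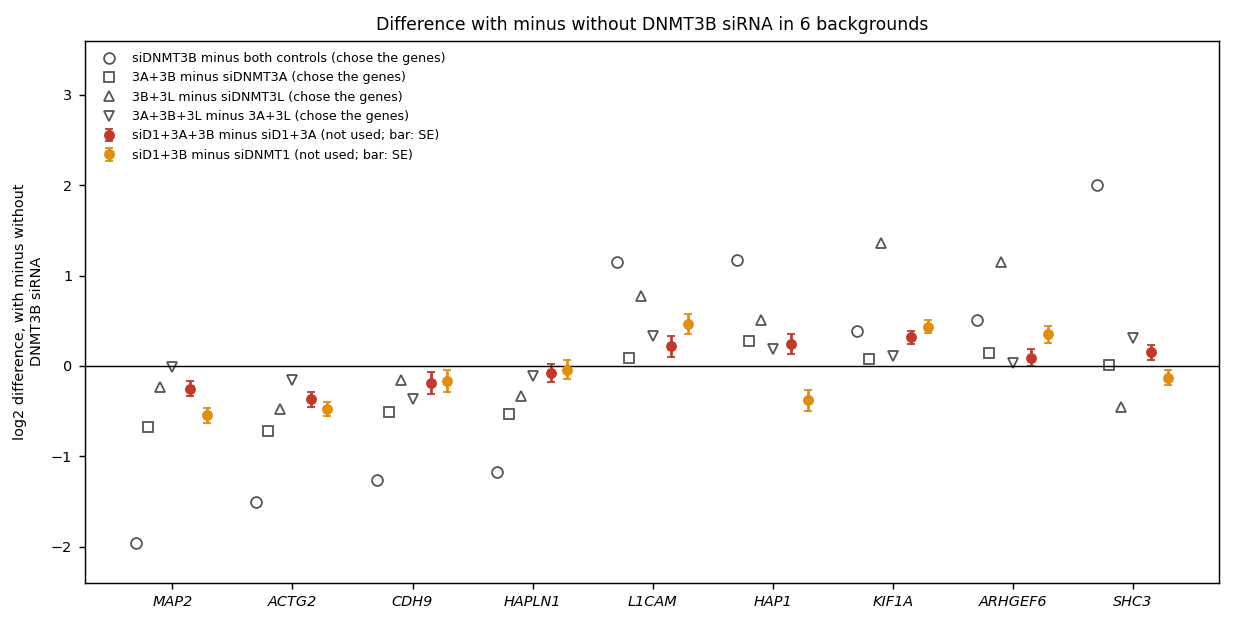
Log2 difference with minus without DNMT3B siRNA for each gene; open grey points are the 4 backgrounds that chose the genes, red points are siD1+3A+3B minus siD1+3A, orange points are siD1+3B minus siDNMT1, and bars are SE. For ACTG2 the red point lies at -0.37 and the orange at -0.48, both within the range of the grey ones (-1.50 to -0.15).

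The groups with DNMT1 siRNA took no part in the average shift that chose the genes, so a difference there can be tested. The comparisons themselves were chosen with earlier results of these data known. Adding DNMT3B siRNA to DNMT1 plus DNMT3A siRNA (siD1+3A+3B minus siD1+3A) keeps to 1 array set. ACTG2, the only one of the 9 called (0.57% of all genes were called, 0.179% higher and 0.391% lower), measured 7.87 and 7.92 without and 7.47 and 7.58 with DNMT3B siRNA. The groups did not overlap, and the difference was -0.37 ± 0.08 with an adjusted p of 0.0439. That call was lost when any 1 of its 4 arrays was left out, where the difference ran from -0.43 to -0.32. KIF1A measured 7.76 and 7.77 without and 8.01 and 8.15 with DNMT3B siRNA, a difference of 0.32 ± 0.08 that missed the threshold at an adjusted p of 0.0712. It passed with quantile normalization, without the dimmest 40% of genes, with a trended prior and with array weights.

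For MAP2 the arrays read 7.87 and 7.93 against 7.56 and 7.74, a difference of -0.25 ± 0.09 with an adjusted p of 0.226. HAP1 gave 0.24 ± 0.11 (adjusted p = 0.405), L1CAM 0.22 ± 0.11 (0.464), SHC3 0.15 ± 0.09 (0.527) and CDH9 -0.19 ± 0.12 (0.598). HAPLN1 (-0.08 ± 0.10, adjusted p = 0.843) and ARHGEF6 (0.09 ± 0.10, adjusted p = 0.787) overlapped between groups, and in both the sign turned when the second siD1+3A+3B array was left out. The groups did not overlap in 7 of the 9 genes, against 46.5% of all genes. At an unadjusted p under 0.05 there were 4 of the 9, against 12.2% of all genes. The median size of the difference was 0.22 for the 9 genes and 0.07 for all genes. All 9 values had the sign of the average that chose them. The share of all genes with such a match was not computed, so nothing is read from that count. DNMT3B itself differed by -0.41 ± 0.06 (adjusted p = 0.00407) between these groups. Of the 15 stress genes 6 were higher in siD1+3A+3B, with a median of 0.30, and INHBE, an activin subunit, rose by 1.14 and DDIT4, an inhibitor of mTOR signalling, by 0.80. Whether they play a part in the members' differences was not tested.

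The other addition, of DNMT3B siRNA to DNMT1 siRNA (siD1+3B minus siDNMT1), crosses the array sets. MAP2 measured 7.99 and 8.02 in siDNMT1 and 7.51 and 7.40 in siD1+3B, and it was 1 of 6 genes called, where 32% of all genes were (19% higher and 13% lower). Its difference was -0.55 ± 0.09 (adjusted p = 9.6e-05), that of ACTG2 -0.48 ± 0.08 and that of HAP1 -0.38 ± 0.11. KIF1A (0.44 ± 0.08), L1CAM (0.46 ± 0.11) and ARHGEF6 (0.35 ± 0.10) were higher. Calls were lost for L1CAM without the first siD1+3B array (0.38), for ARHGEF6 without that array (0.31) or the second siDNMT1 array (0.24), and for HAP1 without the first siDNMT1 (-0.35) or second siD1+3B array (-0.33). With each group set against the control of its own side, 7 of the 9 differences changed sign: MAP2 became 0.21, ACTG2 0.32, CDH9 0.51, HAPLN1 1.08, L1CAM -0.37, KIF1A -0.81 and ARHGEF6 -0.78. In that form 4 of the 9 were called, against 17.5% of all genes. The array set and the groups cannot be told apart in this comparison, and no direction is drawn from it.

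HAP1 gave opposite signs in these additions. DNMT3B siRNA gave 0.24 in the presence of DNMT3A siRNA and -0.38 in its absence, a difference of 0.62 ± 0.16 (adjusted p = 0.0103, 20.3% of all genes called). The comparison was added after the values were seen, and its second effect crosses the array sets, so nothing is read from the call. With the control of the own side the difference was 1.17 ± 0.20. None of the other 8 genes was called in the first form; in the second ACTG2, CDH9, HAPLN1, KIF1A and ARHGEF6 were also called, where 14% of all genes were.

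A further comparison within the siNTC-2 side swaps DNMT3B for DNMT3A siRNA beside DNMT1 siRNA (siD1+3B minus siD1+3A). Here 6 of the 9 genes were called, 3 lower and 3 higher, against 2.18% of all genes (0.793% higher and 1.39% lower). ACTG2 measured 6.88 and 6.89 in siD1+3B and 7.87 and 7.92 in siD1+3A, and its difference of -1.01 ± 0.08 (adjusted p = 6.2e-06) was the largest in size of all 18417 genes. It left ACTG2 at 49.6% of its siD1+3A level. L1CAM measured 7.35 and 7.18 against 6.53 and 6.55, a difference of 0.73 ± 0.11 (adjusted p = 0.00162), which ranked 5 by size among all genes. Both kept their call with any 1 array of the compared groups left out, and with only those 4 arrays in the model L1CAM lost it.

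CDH9 measured 5.83 and 5.65 against 6.53 and 6.34, a difference of -0.70 ± 0.12 (adjusted p = 0.00473) and rank 8. MAP2 fell by 0.44 ± 0.09 (adjusted p = 0.00990), and ARHGEF6 (0.40 ± 0.10, adjusted p = 0.0328) and KIF1A (0.30 ± 0.08, adjusted p = 0.0456) rose. SHC3, at 0.33 ± 0.09, missed the threshold (adjusted p = 0.0581), while HAP1 (0.06 ± 0.11) and HAPLN1 (-0.04 ± 0.10) overlapped between groups. With 1 of the 4 arrays left out, 2 to 4 of the 9 were called, and with only the 4 arrays in the model 1 was. ARHGEF6 (0.36 to 0.44) and KIF1A (0.27 to 0.34) lost their call without any 1 of the arrays. CDH9 lost it without the first siD1+3A (-0.60) or second siD1+3B array (-0.61), and MAP2 without either siD1+3A array (-0.47 and -0.41) or the second siD1+3B array (-0.39). SHC3 passed with quantile normalization, without the dimmest 40% of genes, with a trended prior and with array weights. The swap removes DNMT3A siRNA as well as adding DNMT3B siRNA, and their shares in a difference were not tested. siD1+3A+3B, with both, lies on the same side. The step to it adds DNMT3B siRNA, and the step from it removes DNMT3A siRNA. From siD1+3A through siD1+3A+3B to siD1+3B, ACTG2 averaged 7.90, 7.525 and 6.88, CDH9 6.43, 6.25 and 5.74, and L1CAM 6.54, 6.76 and 7.27. MAP2 averaged 7.90, 7.65 and 7.46, ARHGEF6 6.63, 6.72 and 7.03, and KIF1A 7.76, 8.08 and 8.06 in that order. DNMT3B was lower by -0.60 and DNMT3A higher by 0.63 in siD1+3B. Of the 15 stress genes 5 were lower, with a median of -0.22.

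**Figure D3:**
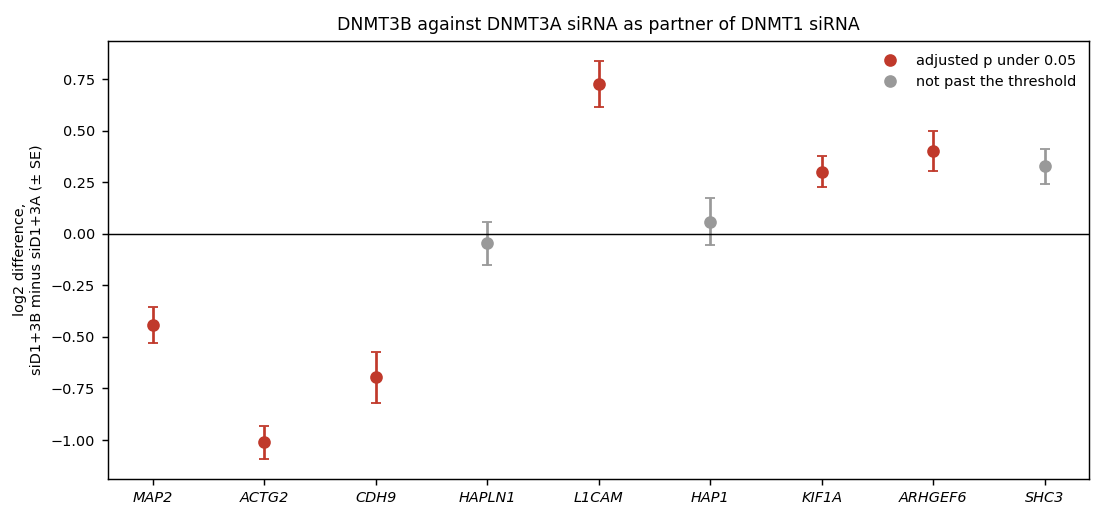
Log2 difference of siD1+3B minus siD1+3A with its SE for the 9 genes; red points passed the adjusted threshold. ACTG2 at -1.01 and L1CAM at 0.73 are the extremes, and HAP1 and HAPLN1 lie near 0.

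Genes that work beside the 9 in the same machinery were followed in these 2 comparisons within a set. When DNMT3B siRNA was added to DNMT1 plus DNMT3A siRNA, 1 of 24 further microtubule and axonal transport genes was called (STMN2, a microtubule-destabilising protein of neurons, -0.21 ± 0.04), and 1 of 17 neural immunoglobulin adhesion genes (NRP1, a semaphorin receptor, 0.34 ± 0.05). By limma 0 of 15 further cadherins, 17 hyaluronan matrix genes, 18 actin and contractile genes, 12 Shc and neurotrophin receptor genes and 12 genes of the PIX, GIT and PAK group were called. Of all genes 0.57% were called. Those at an unadjusted p under 0.05 numbered 4 and 5 in the first 2 lists and 2, 0, 1, 1 and 1 in the others, against 12.2% of all genes, and the median of each list lay between -0.02 and 0.05. In the swap, where 2.18% of all genes were called, the counts in the same order were 3 of 24, 2 of 17, 0 of 15, 3 of 17, 1 of 18, 0 of 12 and 1 of 12. At an unadjusted p under 0.05 they were 7, 6, 1, 4, 4, 1 and 2, against 14.4% of all genes.

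Among close relatives of the 9 genes in the swap, ARHGEF7, the beta form of the exchange factor, fell by 0.34 ± 0.05 (adjusted p = 0.00187) while ARHGEF6 rose. ACTA2, the vascular smooth muscle actin, gave 0.08 ± 0.08 where ACTG2 gave -1.01 ± 0.08. SHC1, SHC2 and SHC4, HAPLN2, HAPLN3 and HAPLN4, the L1 relatives CHL1, NFASC and NRCAM, MAP1B and MAPT, CDH6 and CDH10, and KIF1B and KIF1C were not called in either comparison. STMN2 was lower in the swap too, by -0.26 ± 0.04. CNTN1, an axonal contactin, fell by 0.36 and CD44, the hyaluronan receptor, rose by 0.35; both were named after their values were seen.

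The other siRNAs were averaged over groups with and without each of them, but not over all 13 groups. The averages of DNMT3A and DNMT3L siRNA left out the groups with DNMT1 siRNA. That of DNMT1 siRNA left out the groups with DNMT3L siRNA. The DNMT1 and DNMT3L averages shared the same groups without: the mean of the controls, siDNMT3A, siDNMT3B and 3A+3B. These contrasts did not choose the genes but draw on arrays that did, so the values are a description, and the counts of genes past the adjusted threshold support nothing about the 9. With DNMT3A siRNA, ACTG2 (0.84 ± 0.04) and CDH9 (0.90 ± 0.06) were higher and HAP1 (-0.74 ± 0.06) lower. In all, 7 of the 9 were called, where 45.2% of all genes were (24.2% higher and 21.1% lower). MAP2 (0.26) and ARHGEF6 (0.18) were also higher and L1CAM (-0.17) and SHC3 (-0.31) lower. Without the first 3A+3L array L1CAM, at -0.13, was not called, without the first siDNMT3A array HAPLN1 (0.13) was, and without the first siNTC-1 array KIF1A (0.08) was. All groups with DNMT3A siRNA lie on the siNTC-2 side, and with the control of the own side all 9 were called (22.3% of all genes). ACTG2 then gave 1.34, CDH9 1.32, HAP1 -1.08, MAP2 0.74, HAPLN1 0.79, L1CAM -0.69 and SHC3 -0.30, while KIF1A (-0.72) and ARHGEF6 (-0.53) changed sign. ACTG2, CDH9, MAP2, L1CAM, HAP1 and SHC3 thus kept their direction and call in both forms. HAPLN1 kept its direction too (0.09 in the first form) but was called only with the control of the own side.

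With DNMT3L siRNA, CDH9 (-0.66 ± 0.06), ACTG2 (-0.54 ± 0.04) and MAP2 (-0.39 ± 0.04) were lower, with 7 of the 9 called against 15.9% of all genes (7.85% higher and 8.07% lower). HAP1 (-0.22), KIF1A (-0.18) and HAPLN1 (-0.18) were lower too and L1CAM (0.22) higher. The HAPLN1 call was lost without any 1 of 6 arrays (-0.17 to -0.14): the second of siDNMT3A, siDNMT3B, siDNMT3L and 3B+3L and the first of 3A+3L and 3A+3B+3L. With the control of the own side 5 were called (17.8% of all genes), and HAPLN1 (-0.04) and L1CAM (0.11) did not pass. With DNMT1 siRNA, HAP1 (-0.46 ± 0.06), ACTG2 (-0.26), KIF1A (-0.25) and HAPLN1 (-0.22) were lower, and ARHGEF6 (0.27), L1CAM (0.27) and SHC3 (0.14) higher. The SHC3 call was lost without the first siD1+3B array or the second of siD1+3A+3B, siDNMT3A or 3A+3B (0.12 to 0.13). In all, 7 of the 9 were called against 21.9% of all genes (10.4% higher and 11.5% lower). With the control of the own side it was 5 against 25.1%, and HAPLN1 (-0.08) and ARHGEF6 (0.13) did not pass. Stress genes were lower with DNMT3L siRNA (10 of 15) and with DNMT1 siRNA (13 of 15) and higher with DNMT3A siRNA (14 of 15), and their part in these values was not tested.

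**Figure D4:**
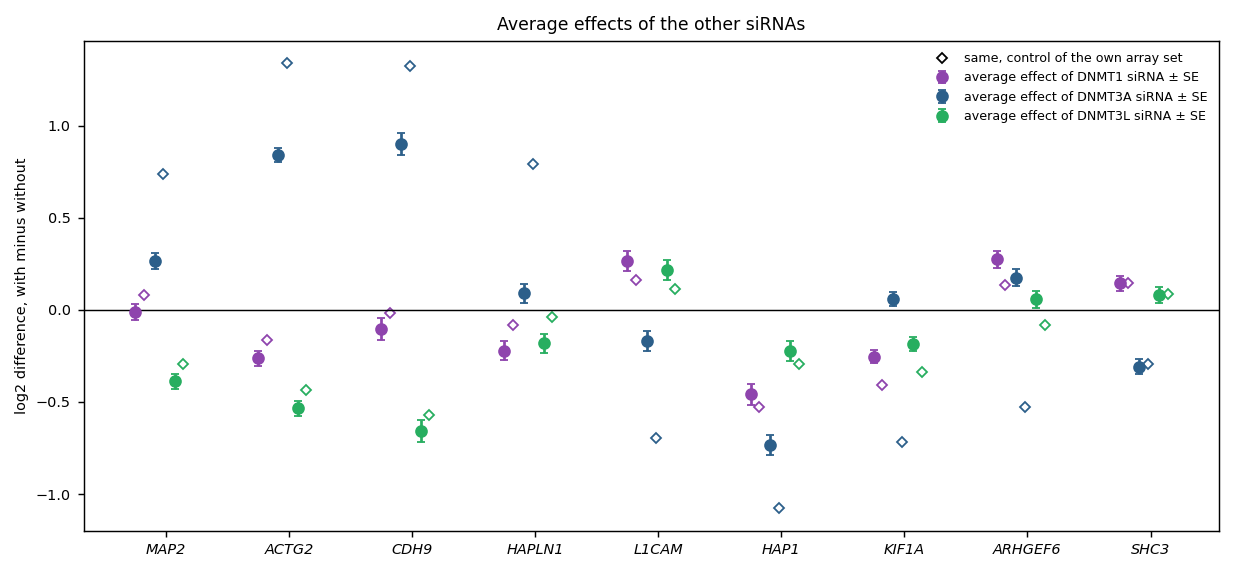
Average log2 effect of DNMT1, DNMT3A and DNMT3L siRNA on each gene with its SE. Filled points use the groups compared as they are, and open diamonds set each of these groups against the control of its own array set. ACTG2 and CDH9 are highest with DNMT3A siRNA (0.84 and 0.90). Between the forms KIF1A changes sign with DNMT3A siRNA, ARHGEF6 with DNMT3A and with DNMT3L siRNA, and MAP2 with DNMT1 siRNA.

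The group means of the 9 genes followed each other to different degrees. Over the 13 groups, which share their array sets and controls, Pearson's r was 0.93 between ACTG2 and CDH9, 0.88 between MAP2 and HAPLN1 and 0.82 between L1CAM and ARHGEF6. It was -0.88 between L1CAM and HAPLN1, and -0.04 between KIF1A and SHC3. Among 1179 genes whose group means had an SD of at least 0.3, the most alike to MAP2 was NRP2 (0.97), to KIF1A PCBP4 (0.97), to ARHGEF6 IGSF21 (0.96), to SHC3 KRT8 (0.94), to CDH9 ACTG2 (0.93), followed by PMFBP1 (0.93), to L1CAM IL17RD (0.87), and to HAP1 B3GALT5 (0.84). ACTG2 and HAPLN1 were most alike to CDH9 and MAP2, and next to OTX2 (0.87) and SYNDIG1 (0.86). These correlations describe 13 group means and carry no test.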

How the data were processed

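The deposited table holds the authors' log2 expression values for 26 arrays, hybridised with cDNA from 250 ng of total RNA per the labels' protocols. The log2 scale was inferred from the range of 3.04 to 14.87. Partek is named in the submitters' processing notes without role or version, and for background correction and normalization the method is not given in the sources used here. Values normalized between arrays hide any shift shared by all transcripts.

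Of 33297 rows, 19460 had 1 gene symbol, 1754 several (not used) and 12083 none. For 769 genes with more than 1 row the row of highest mean was kept, which left 18417 genes without a filter on low values. By gene number, 19429 single-symbol rows were found in RefSeq's table for GRCh38.p14.

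In limma 3.58.1 under R 4.3.3, lmFit and eBayes estimated 13 group means over all arrays (13 residual degrees of freedom); the script was tested on simulated data. P-values are two-sided, adjusted by Benjamini and Hochberg over all genes, threshold 0.05; ± is the SE of the model. For the control of the own side, weights on siNTC-1 and siNTC-2 were added so that weights sum to 0 within each array set. The number of arrays limits the precision.

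The 9 genes, gene lists and comparisons were chosen with earlier results of these data known. Named besides the 9 are the siRNA targets, up to 4 genes per list with the smallest adjusted p in siD1+3A+3B minus siD1+3A, close relatives of the 9, and for each of the 9 the genes of most alike group means. Alternatives were quantile normalization, leaving out the dimmest 40% of genes, a trended and robust prior, array weights, a block for replicate number, all rows with 1 symbol, the control of the own side, only the groups compared, and each array left out. Replicate numbers did not pair the arrays: deviations of same-numbered arrays correlated above 0.1 in 9 of 78 pairs of groups.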

Additional observations from a re-analysis of the deposited data

Results flagged for a closer look

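HAP1 gave values of opposite sign with DNMT3B siRNA beside DNMT1 siRNA, 0.24 with and -0.38 without DNMT3A siRNA. The interaction was 0.62 ± 0.16 on the log2 scale (limma adjusted p = 0.0103), where 20.3% of all genes were called. The value without DNMT3A siRNA crosses the array sets. The HAP1 comparison was added after the values were seen, and nothing is read from its call.

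SHC3 gave differences of opposite sign with DNMT3B siRNA. It was higher by 2.00 on the mean of the controls and by 0.31 on 3A+3L, but lower by a log2 difference of -0.45 on siDNMT3L. The difference between these was not tested, since the contrast chose the genes. With the control of the own side the last value was -0.43.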

How the results depend on the processing

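Of 1100 values of the 9 genes under alternatives, 1019 kept direction and side of the threshold, 45 lost a call, 12 gained 1 and 24 changed sign. For DNMT3B siRNA added to DNMT1 plus DNMT3A siRNA, 1 of the 9 genes was called in the main fit. The count became 2 with quantile normalization, without the dimmest 40% (which drops HAPLN1), with the trended prior and with array weights. It was 0 with only the groups compared. The calls over all genes went from 105 to 176, 302, 362, 460 and 6 in that order. For the swap of DNMT3B for DNMT3A, 6 called became 1 with only the groups compared and 2 to 4 with an array left out, and 402 genes became 699 without the dimmest, 678 with the trended prior, 1011 with weights, 5 and 87 to 166. The control of the own side took 5892 genes to 3228 for siD1+3B minus siDNMT1 and 8332 to 4099 for DNMT3A siRNA. With the replicate block, 1 of the 9 was called when DNMT3B siRNA was added to DNMT1 plus DNMT3A siRNA. It was 6 for siD1+3B minus siDNMT1 and 5 for the swap, where KIF1A was lost. No other of 63 calls changed. The share of all genes called with the block is not given here, so nothing is read from these counts. The replicate numbers do not pair the arrays.

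Sign changes with the control of the own side were, for siD1+3B minus siDNMT1, MAP2 0.21, ACTG2 0.32, CDH9 0.51, HAPLN1 1.08, L1CAM -0.37, KIF1A -0.81 and ARHGEF6 -0.78; for DNMT3A siRNA, KIF1A -0.72 and ARHGEF6 -0.53; for DNMT3L siRNA, ARHGEF6 -0.084; and for DNMT1 siRNA, MAP2 0.083. Quantile normalization turned MAP2 with DNMT1 siRNA (7e-04) and KIF1A with DNMT3A siRNA (-0.010). With 1 array left out in turn, values that changed sign ran from -0.21 to 0.057 for HAPLN1 and from -4e-04 to 0.18 for ARHGEF6 (siD1+3A+3B minus siD1+3A), from -0.13 to 0.044 for HAPLN1 (siD1+3B minus siDNMT1), from -0.13 to 0.043 for HAPLN1 and from -0.051 to 0.17 for HAP1 (swap), from -0.082 to 0.042 for SHC3 (controls) and from -0.052 to 0.029 for MAP2 (DNMT1 siRNA). The cause was not tested.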
